A study of Mus musculus with 32 samples.

Results

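The enzymes described here are 9 steps of the route that builds sterols from acetyl units, named in pathway order as Hmgcs1, Mvk, Mvd, Idi1, Fdps, Fdft1, Sqle, Lss and Cyp51. They were chosen by name, with no threshold on their values, and all 9 were present among the 13175 genes measured. Their transcripts were followed in 32 single mouse oocytes, 1 library per oocyte, made with the SMART-Seq v4 Ultra Low Input kit. As background, this kit primes cDNA on poly(A) tails, so a level can reflect the amount of a transcript, the length of its tail, or both.

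All oocytes were labelled as wild type (WT). The GV fresh group held 4 germinal vesicle (GV) oocytes, which are arrested before the first meiotic division, taken on day 8 from preantral follicles grown in culture without prior storage. The GV vitrified group held 4 GV oocytes taken on day 8 from follicles that had been vitrified, that is cooled into a glass-like state, before growth. The MII fresh and MII vitrified groups held 12 metaphase II (MII) oocytes each, taken on day 9 after ovulation had been induced with hCG, the hormone that stands in for the ovulatory surge. Strain, age, and the mouse and culture each oocyte came from are not stated in the labels, so p-values measure the spread between these oocytes, which may share a source.

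As background, Hmgcs1 condenses acetyl units, and Mvk and Mvd carry mevalonate to the isoprenoid building block that Idi1 isomerises. Fdps joins these blocks into farnesyl diphosphate, the branch point to ubiquinone, dolichol and protein prenylation, and Fdft1 commits it to squalene. Sqle, Lss and Cyp51 then close and trim the ring. In the mouse ovary the oocyte is known to rely on the surrounding cumulus cells for much of its cholesterol. Transcription is largely silent in a fully grown oocyte, and stored transcripts are translated or removed during maturation as their poly(A) tails are lengthened or shortened.

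On GRCm38, in the GENCODE M21 annotation, the genes whose calls follow lie at chr13:119690379-119708260 (Hmgcs1, plus strand), chr8:122433601-122443422 (Mvd, minus), chr13:8885501-8892451 (Idi1, plus), chr14:63145150-63179578 (Fdft1, minus) and chr10:76531588-76557138 (Lss, plus). Of the 9 genes Mvk and Sqle overlap no other annotated gene, Cyp51 overlaps Akap9 and Fdft1 overlaps Ctsb on the other strand, and the other 5 overlap an antisense or predicted gene. The labels do not say whether counting used strand, so reads of such pairs cannot be told apart. Fdps overlaps Gm43738 and Gm22935 on its own strand, where counting by strand would not separate them either.

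Sequences near the ends of the transcripts are shown first because the libraries were primed there. For 4 enzymes whose level differed between stages, the lines give 30 bases near the 3′ end of the principal GENCODE M21 transcript. Mvd, which was called between stages in vitrified oocytes only, is not shown. Capitals mark a poly(A) signal (AATAAA or ATTAAA) or the U-rich element TTTTAT or TTTTAAT, written with T, which can mark stored oocyte transcripts for tail lengthening.
Hmgcs1: ctttataccagaAATAAActgtattgcctg
Idi1: AAAAATAAAttaTTTTAATattgtctggct
Fdft1: aagccttgaacaaataccaccccgctgaaa
Lss: ttactaagatgtTTTTATttaAATAAAttt
The Idi1 stretch begins inside an ATTAAA that runs into the AATAAA, and its U-rich element starts at position −87 from the transcript end. The Lss element starts at −79. Over the last 120 bases, sense strand only, the U-rich element was present in 2 of the 9 enzymes, Idi1 and Lss, or 22.2%, beside 21.5% of 13042 genes with a transcript. A poly(A) signal was present in 8 of the 9, or 88.9%, beside 81.4% of those genes, and Fdft1 had no match. These matches are a description of the letters and not evidence of use.

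The promoter of Hmgcs1 is shown because this gene differed between stages and is a textbook target of the sterol-sensing factor SREBP2. RefSeq (GRCm38.p6) promoter entries of 300 bases, 250 before and 50 after the start, matched 6 of the 9 genes (Hmgcs1, Mvk, Mvd, Idi1, Lss and Cyp51). The line below gives chr13:119690181-119690260 on the plus strand, positions −170 to −91 from the start, with the sterol regulatory element match in capitals.
Hmgcs1 promoter: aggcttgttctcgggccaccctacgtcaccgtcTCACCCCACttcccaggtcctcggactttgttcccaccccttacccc
Searched on both strands, TCACNCCAC was found in this 1 of the 6 promoters and in 1.24% of 32851 promoters. The CCAAT box, bound by the factor NF-Y, was found in all 6 and in 37.4% of promoters.

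Depth ran from 10357543 to 17687247 counts in GV fresh, 11159677 to 16554201 in GV vitrified, 6196976 to 10142902 in MII fresh and 5300208 to 12206512 in MII vitrified oocytes. Oocyte identity was checked with 14 markers, of which 13 were in the table and all were tested, and in each treatment 6 were called higher and 5 lower in MII. Gdf9, an oocyte growth factor, had a mean of 3203 CPM in GV fresh and 5457 in MII fresh oocytes, while Ooep, a maternal-effect gene, had 5061 and 515 CPM and Figla, a factor of the growing oocyte, 65.1 and 0.756. CPM are counts scaled to a library total of 1000000. Of 26 cumulus and granulosa markers 22 were in the table, and their summed level was 168 to 355 CPM in GV and 1556 to 8747 CPM in MII oocytes, of which Serpine2, detected in every oocyte, made up a mean of 2401 CPM in MII fresh. Of 9 of these markers tested in fresh oocytes 3 were called higher and 1 lower in MII, and of 10 in vitrified oocytes 4 and 0, beside 23.5% higher and 30.6% lower over all genes in fresh and 25.1% and 34.2% in vitrified oocytes. Ptx3, Areg, Ereg, Btc and Adamts1 were at 0 in every GV oocyte, but each was detected in at most 3 of 12 oocytes of either MII group. Other markers of this list went the other way. Fshr, Star, Lhcgr, Kitl and Nr5a2 had a lower mean CPM in MII than in GV oocytes of both treatments. The summed level of 7 genes of cumulus expansion (Has2, Ptx3, Tnfaip6, Ptgs2, Areg, Ereg and Btc), a list chosen after seeing the data, was 0 to 1.67 CPM in 18 MII oocytes and 2.72 to 816 CPM in the other 6. These were MII fresh oocytes 1, 7 and 11 and MII vitrified oocytes 1, 7 and 12. Several results that rest on them are given with and without them. Levels per kilobase, shares and the Mvd call in vitrified oocytes are given with them only.

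Values of GV oocytes were whole numbers for every enzyme, whereas some MII values were not whole, and the labels do not name the step that made them so. Hmgcs1 was not whole in 22 of the 24 MII oocytes and Idi1 in all 24, Fdft1 in 4, Sqle in 2, Fdps in 1 and the other enzymes in 0. Among fresh oocytes, 39.6% of the 3901 genes with a fraction in some but not all of the 12 MII oocytes and 54.8% of the 449 with a fraction in all 12 were called higher in MII than in GV oocytes, beside 11.5% of the 6367 genes that were whole in every MII oocyte. Among vitrified oocytes these shares were 43.6% of 3552, 56.3% of 396 and 12.8% of 6368 genes. Genes whole in every MII oocyte were called lower in 37.6% of fresh and 42.2% of vitrified cases. A value of 0 is always whole, so this split of genes depends in part on their MII level. The shares therefore cannot show how much the way of counting adds. How far the way of counting enters the stage differences of Hmgcs1 and Idi1 was not tested, and stage and way of counting cannot be told apart in these files.

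**Figure D1:**
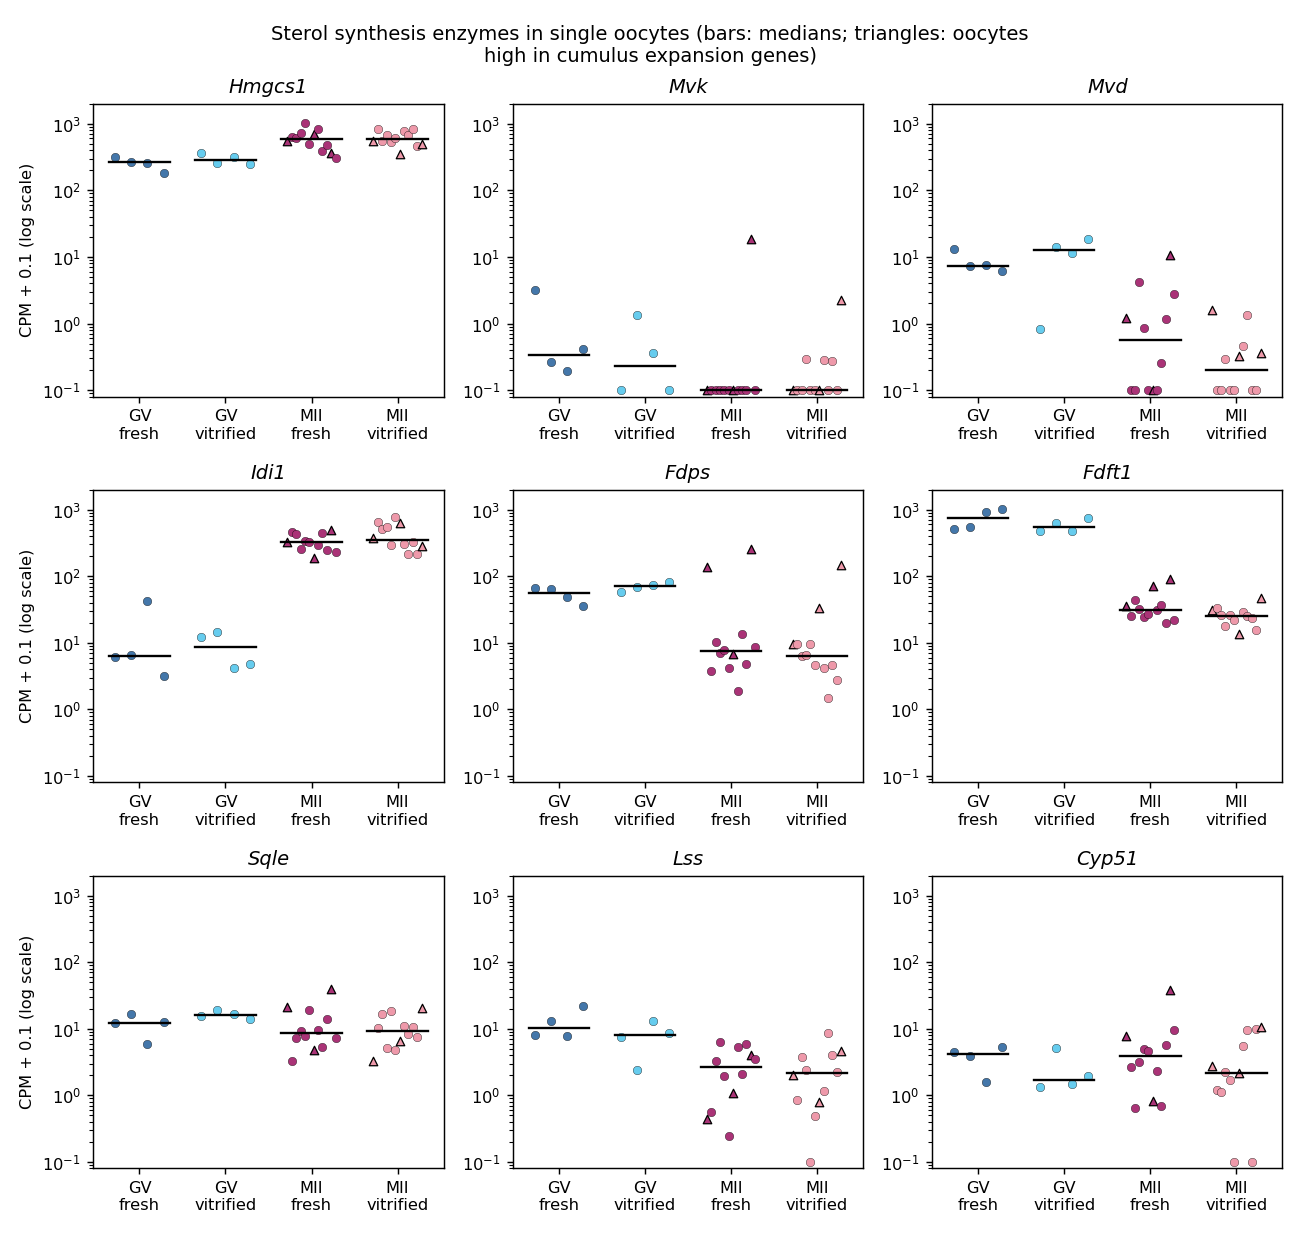
CPM of each enzyme in every oocyte (vertical log axis, 0.1 added so that 0 can be drawn) by group, with bars at the medians and triangles for the 6 MII oocytes high in cumulus expansion genes. Idi1 is higher and Fdft1 lower in all 24 MII oocytes than in any GV oocyte, and the highest MII values of Mvk, Fdps and Cyp51 are triangles.

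Between stages Hmgcs1 and Idi1 were higher and Fdft1 was lower in MII than in GV oocytes of both treatments. In fresh oocytes 2 of the 8 enzymes tested were higher in MII (Hmgcs1 and Idi1) and 2 were lower (Fdft1 and Lss), against a background in which 54.1% of 10717 genes were called, 23.5% higher and 30.6% lower. In vitrified oocytes 2 were higher (Hmgcs1 and Idi1) and 2 lower (Fdft1 and Mvd), against 59.3% of 10316 genes, 25.1% higher and 34.2% lower. These numbers of called enzymes lie near the background. In vitrified oocytes Mvd passed the filter mainly through the GV oocytes, as given below. The median log2 fold change of the 8 tested enzymes was −0.20 in fresh and −1.18 in vitrified oocytes, beside −0.23 and −0.27 over all genes tested. With library totals alone in place of the scaling factors, the median over all genes was −0.60 in fresh and −0.73 in vitrified oocytes, and with upper-quartile factors −0.04 and −0.05. The split of calls moved from 2522 higher and 3275 lower to 1917 and 3957 in fresh oocytes with library totals, and from 2589 and 3529 to 1867 and 4248 in vitrified ones. The directions called for Hmgcs1, Idi1, Fdft1, Lss and Mvd were the same under each scaling tried. Mvk was too low to be tested between stages. All tests are the quasi-likelihood F test of edgeR with Benjamini-Hochberg adjustment over all genes of the comparison, and each log2 fold change is given ± its standard error.

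Hmgcs1, which makes the precursor of mevalonate, had 311, 269, 256 and 181 CPM in the 4 GV fresh oocytes and 357, 258, 321 and 247 CPM in the 4 GV vitrified ones. In MII fresh oocytes it ran from 307 to 1028 CPM with a median of 582, and in MII vitrified oocytes from 354 to 834 with a median of 582. Most MII oocytes were above all GV oocytes, and the ranges met only at their edges. The rise was 2.29-fold in fresh oocytes (log2 fold change 1.19 ± 0.28, edgeR adjusted p = 0.00132) and 2.03-fold in vitrified ones (1.02 ± 0.22, edgeR adjusted p = 4.83e-04). With library totals alone, without the scaling factors, the log2 fold changes were 0.82 and 0.56 and both were still called. In MII oocytes with library numbers under 20 they were 1.39 and 0.93, and in those with numbers of 20 and over 0.85 and 1.13. GV libraries carry other numbers, so no number range holds both stages.

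Mvk, which phosphorylates mevalonate, was near the limit of detection. The GV fresh oocytes had 3.11, 0.163, 0.0920 and 0.317 CPM, and the GV vitrified ones 0, 1.24, 0.262 and 0. Among MII fresh oocytes it was at 0 in all but number 11, with 18.6 CPM from 122 counts, and in MII vitrified oocytes 4 of 12 had any count, the highest, number 12, with 2.17 CPM. Both of these oocytes were high in cumulus expansion genes, at 816 and 148 CPM. Without the 6 such oocytes Mvk was at 0 in all 9 MII fresh oocytes. The part of cumulus transcripts in these values was not tested.

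Mvd, which decarboxylates the last mevalonate intermediate, had 12.9, 7.20, 7.36 and 6.13 CPM in GV fresh oocytes and 0.715, 13.8, 11.3 and 18.2 in GV vitrified ones. MII fresh values of Mvd ran from 0 to 10.7 CPM with a median of 0.458, and in MII vitrified oocytes from 0 to 1.51 with a median of 0.0973. MII oocytes were low in both treatments, but MII fresh oocyte 11 reached GV levels and GV vitrified oocyte 1 lay within the MII range. In vitrified oocytes Mvd fell by 4.97 ± 0.95 on the log2 scale, 31.4-fold (edgeR adjusted p = 1.29e-04). Here Mvd passed the filter mainly through 3 GV vitrified oocytes, with 278, 259 and 365 counts. The other GV vitrified oocyte had 8 counts and the MII vitrified oocytes 0 to 17. Mvd could be tested in only 9 of the 16 fits that left out 1 oocyte, so this call depends on which oocytes enter. With the replicate number as a block the call was lost (−5.63, edgeR adjusted p = 0.0613). In fresh oocytes the log2 fold change was −2.28 ± 1.13 (95% interval −4.64 to 0.08, edgeR adjusted p = 0.0967). Without the 3 MII fresh oocytes high in cumulus expansion genes it was −3.12 (edgeR adjusted p = 0.0108), and without MII fresh oocyte 11 alone −3.22 (edgeR adjusted p = 0.00824). The interaction of stage with treatment was −2.67 ± 1.72 (edgeR adjusted p = 1.00), so the call in one treatment and not the other does not show that they differ.

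Idi1, which converts isopentenyl to dimethylallyl diphosphate, had 6.05, 6.55, 42.3 and 3.12 CPM in GV fresh oocytes and 12.3, 14.7, 4.06 and 4.68 in GV vitrified ones. In MII fresh oocytes it ran from 188 to 486 CPM with a median of 328, and in MII vitrified oocytes from 213 to 779 with a median of 351. Every MII oocyte lay above every GV oocyte, including GV fresh oocyte 3, which stood apart at 42.3 CPM. The rise was 22.8-fold in fresh oocytes (log2 fold change 4.51 ± 0.62, edgeR adjusted p = 4.38e-06) and 47.1-fold in vitrified ones (5.56 ± 0.52, edgeR adjusted p = 8.91e-09). Without GV fresh oocyte 3 the fresh value was 5.96. In either set of library numbers the log2 fold changes lay between 4.55 and 5.87, and without the oocytes high in cumulus expansion genes they were 4.50 and 5.56. Ranges that do not overlap were found for 13.5% of genes in the higher direction in fresh and 14.8% in vitrified oocytes.

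Fdps, which makes farnesyl diphosphate, had 67.2, 64.0, 48.1 and 35.9 CPM in GV fresh oocytes and 57.3, 67.8, 73.4 and 80.5 in GV vitrified ones. Among MII fresh oocytes Fdps ran from 1.78 to 256 CPM with a median of 7.34, and in MII vitrified oocytes from 1.39 to 147 with a median of 6.32. The MII oocytes lay below all GV oocytes except MII fresh oocytes 1 and 11, at 135 and 256 CPM, and MII vitrified oocyte 12, at 147 CPM, while MII vitrified oocyte 7 was next at 32.8 CPM. Over all oocytes Fdps was not called: the log2 fold change was −0.47 ± 1.04 in fresh (95% interval −2.65 to 1.70, edgeR adjusted p = 0.728) and −1.83 ± 0.80 in vitrified oocytes (−3.51 to −0.16, edgeR adjusted p = 0.0556). Those 4 oocytes were all among the 6 high in cumulus expansion genes. The rest of the 6, MII fresh oocyte 7 and MII vitrified oocyte 1, had 6.73 and 9.60 CPM, within the range of the low MII oocytes. With 1 oocyte left out, Fdps was never called in fresh oocytes (−1.56 to −0.36, smallest edgeR adjusted p = 0.0920). In vitrified oocytes it was called without MII vitrified oocyte 12 alone (−3.10, edgeR adjusted p = 1.69e-05). Without the 6, a choice made after seeing the data, Fdps had a mean of 6.77 ± 3.61 CPM in MII fresh and 5.44 ± 2.77 in MII vitrified oocytes (SD, n = 9 each), and it was called lower in both, at −3.04 (edgeR adjusted p = 1.90e-06) and −3.71 (1.44e-07). The part of cumulus transcripts in the high values was not tested.

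Fdft1, squalene synthase, had 517, 549, 932 and 1016 CPM in GV fresh oocytes and 482, 626, 486 and 758 in GV vitrified ones. In MII fresh oocytes it ran from 20.1 to 91.5 CPM with a median of 31.2, and in MII vitrified oocytes from 13.4 to 47.7 with a median of 25.6. Every MII oocyte was far below every GV oocyte, and the highest were again MII fresh oocytes 11 and 7 and MII vitrified oocyte 12. Fdft1 fell by 4.31 ± 0.33 on the log2 scale in fresh oocytes, 19.8-fold (edgeR adjusted p = 3.41e-09), and by 4.53 ± 0.24 in vitrified ones, 23.1-fold (edgeR adjusted p = 2.31e-12). Among all genes 19.4% in fresh and 22.4% in vitrified oocytes were lower without overlap. Reads from the overlapping protease gene Ctsb were not separated from it here.

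Sqle, squalene epoxidase, had 11.9, 16.3, 5.89 and 12.4 CPM in GV fresh oocytes and 15.5, 19.0, 16.7 and 13.7 in GV vitrified ones. MII fresh values of Sqle ran from 3.22 to 39.4 CPM with a median of 8.42, and in MII vitrified oocytes from 3.20 to 20.2 with a median of 9.16. The groups overlapped throughout, with MII fresh oocyte 11 the highest. The log2 fold change was 0.06 ± 0.55 in fresh (95% interval −1.08 to 1.20) and −0.70 ± 0.42 in vitrified oocytes (−1.57 to 0.17), with edgeR adjusted p = 0.935 and 0.156. The sign in fresh oocytes changed with the scaling and with the 6 oocytes named above.

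Lss, which closes the first ring system to lanosterol, had 7.83, 12.8, 7.73 and 21.5 CPM in GV fresh oocytes and 7.51, 2.28, 12.9 and 8.52 in GV vitrified ones. In MII fresh oocytes it ran from 0.141 to 6.25 CPM with a median of 2.55, and in MII vitrified oocytes from 0 to 8.49 with a median of 2.05. In fresh oocytes all MII values lay below all GV values, whereas in vitrified oocytes the ranges overlapped. Lss fell by 2.18 ± 0.66 on the log2 scale in fresh oocytes, 4.53-fold (edgeR adjusted p = 0.00862), but without GV fresh oocyte 4 the value was −1.75 (edgeR adjusted p = 0.0638). In vitrified oocytes it was −1.65 ± 0.75 (95% interval −3.21 to −0.08, edgeR adjusted p = 0.0648), and without MII vitrified oocyte 9 it was −2.04 (edgeR adjusted p = 0.0222). The interaction was 0.54 ± 1.10 (edgeR adjusted p = 1.00).

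Cyp51, which removes the first methyl group from lanosterol, had 4.32, 3.78, 1.47 and 5.23 CPM in GV fresh oocytes and 1.25, 5.06, 1.40 and 1.84 in GV vitrified ones. Cyp51 in MII fresh oocytes ran from 0.546 to 38.0 CPM with a median of 3.78, and in MII vitrified oocytes from 0 to 10.4 with a median of 2.10. The groups overlapped, and MII fresh oocyte 11 stood far above the rest. The log2 fold changes were 0.85 ± 0.90 (95% interval −1.04 to 2.74) in fresh and 0.63 ± 0.99 (−1.43 to 2.70) in vitrified oocytes, with edgeR adjusted p = 0.449 and 0.607. Without the oocytes high in cumulus expansion genes they were −0.05 and 0.47.

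**Figure D2:**
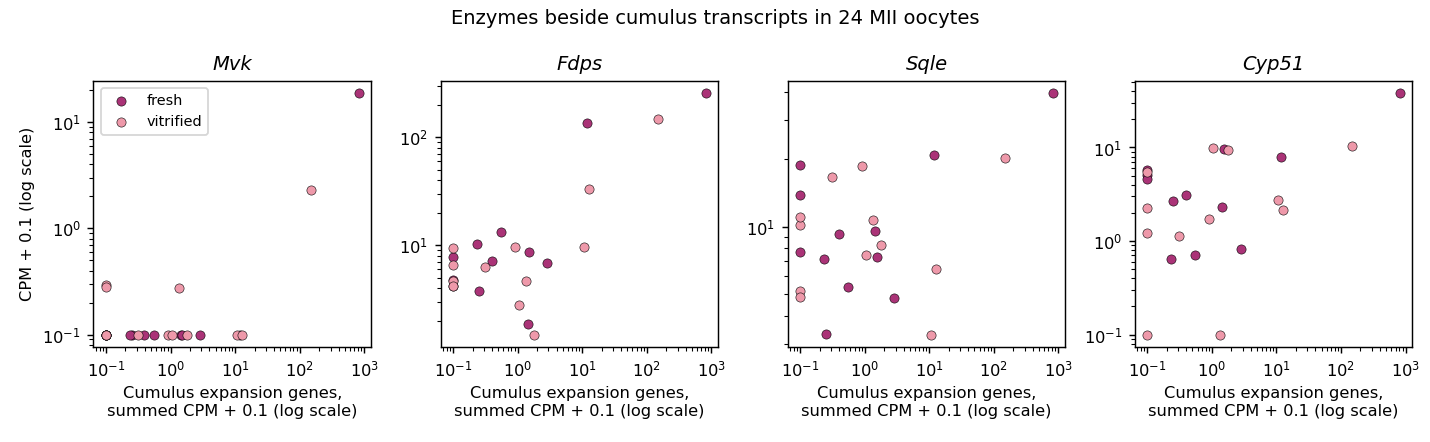
Mvk, Fdps, Sqle and Cyp51 (vertical log axes, CPM with 0.1 added) against the summed CPM of 7 cumulus expansion genes (horizontal log axis, 0.1 added) in the 24 MII oocytes. MII fresh oocyte 11, at 816 CPM on the horizontal axis, is the highest point in all 4 panels, and the Fdps values of 135 and 147 CPM lie at 11.6 and 148 CPM on that axis.

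**Figure D3:**
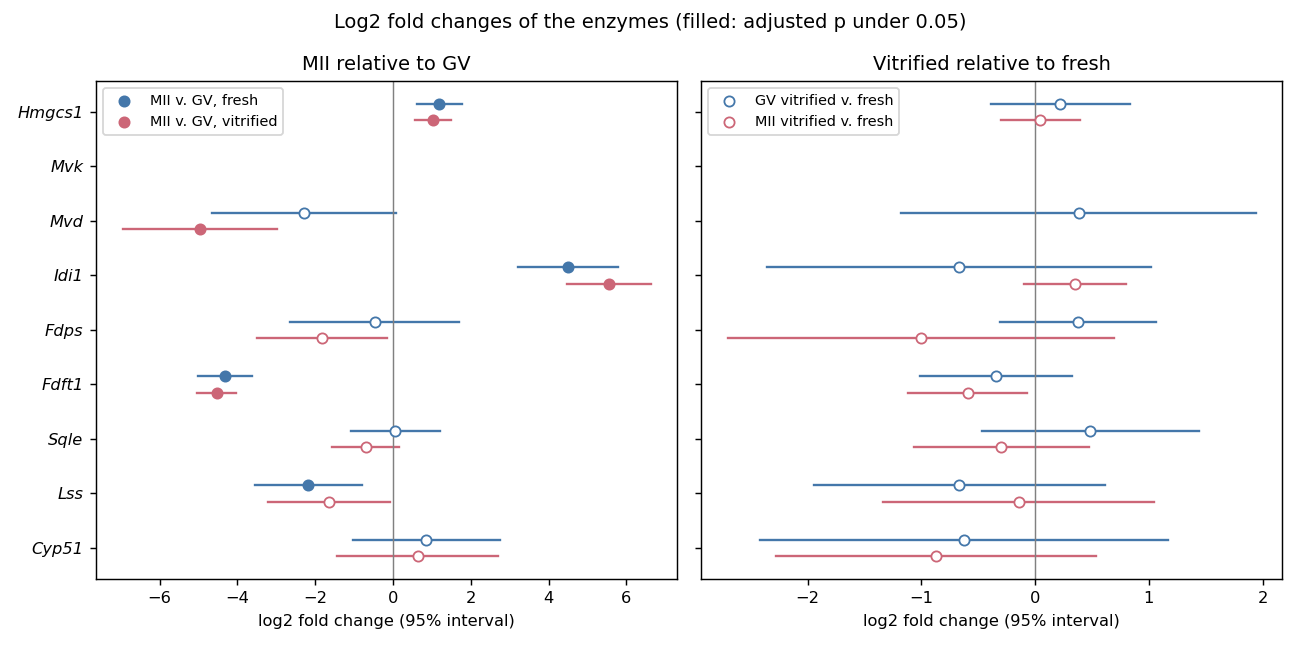
Log2 fold changes of the enzymes with 95% intervals, MII relative to GV on the left and vitrified relative to fresh on the right, with filled points for an edgeR adjusted p under 0.05. Idi1 lies at 4.51 and 5.56 and Fdft1 at −4.31 and −4.53 on the left, and no point on the right is filled. Enzymes without a point were not tested.

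To compare the enzymes with one another, CPM were divided by transcript length in kilobases. In both GV groups the order of the 3 most abundant was Fdft1 (mean 204 and 159 CPM per kilobase in fresh and vitrified), Hmgcs1 (73.4 and 85.4) and Fdps (38.9 and 50.5), each above the next in 4 of 4 oocytes with no overlap. The lower places held Idi1, Mvd, Sqle, Lss, Cyp51 and Mvk, with Idi1 to Sqle not separated beyond their spread in GV fresh oocytes. In MII oocytes Hmgcs1 led, with 172 and 177 CPM per kilobase, followed by Idi1, with 111 and 141, although Hmgcs1 was above Idi1 in 10 of 12 fresh and 9 of 12 vitrified oocytes and their ranges overlapped. Fdps was next by its mean, 27.7 and 14.4, but it exceeded Fdft1 in only 3 and 2 of 12 oocytes.

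As a share of the summed level of the 9 enzymes per kilobase, Fdft1 made up 59.8% ± 12.7 in GV fresh and 50.4% ± 6.48 in GV vitrified oocytes (SD, n = 4 each), and 3.16% ± 1.40 and 2.07% ± 0.70 in MII fresh and vitrified oocytes (SD, n = 12 each). Idi1 made up 1.34% and 0.964% in GV fresh and vitrified oocytes and 34.5% and 39.9% in MII. Hmgcs1 and Idi1 together made up 24.01% and 28.8% in GV and 87.9% and 92.2% in MII oocytes. These shares describe transcripts and rest on values that were not whole for Hmgcs1 and Idi1 in MII.

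**Figure D4:**
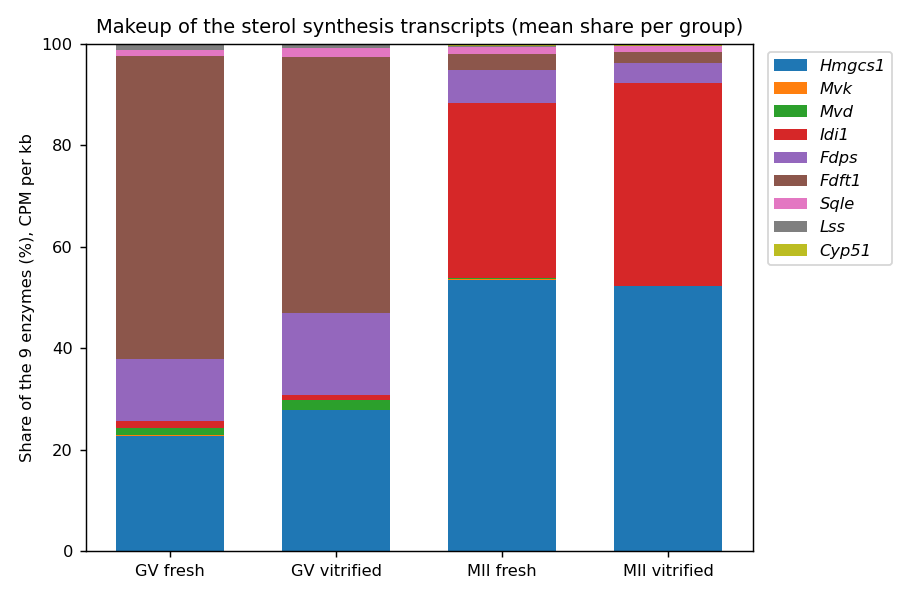
Mean share of each enzyme (vertical axis, %) in the summed CPM per kilobase of the 9 enzymes, by group. Fdft1 makes up 59.8% and 50.4% in the GV groups and 3.16% and 2.07% in the MII groups, where Hmgcs1 and Idi1 fill 87.9% and 92.2%.

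Vitrified and fresh follicles were compared to ask whether storage altered these transcripts in the oocyte that later grew. In GV oocytes edgeR called 0 of 8 enzymes tested and 0 of 10831 genes, or 0%. At an unadjusted p under 0.05 it called 0 enzymes and 180 genes (1.66%), and DESeq2 called 0 genes. In MII oocytes edgeR called 0 of 7 enzymes tested and 0 of 8428 genes, or 0%, with 1 enzyme and 1053 genes (12.5%) at an unadjusted p under 0.05, and DESeq2 called 36 genes and none of these enzymes. In GV oocytes the log2 fold changes ran from −0.67 for Idi1 and Lss to 0.48 for Sqle, but without GV fresh oocyte 3 Idi1 was at 0.77. The narrowest interval was that of Hmgcs1, −0.39 to 0.83, and the widest that of Cyp51, −2.42 to 1.17. With 4 oocytes a group, a difference inside these intervals could not be told from none.

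In MII oocytes the most precise values were those of the abundant enzymes. Hmgcs1 had a log2 fold change of 0.05 ± 0.17 for vitrified relative to fresh (95% interval −0.30 to 0.39) and Idi1 0.35 ± 0.22 (−0.09 to 0.80), with edgeR adjusted p = 0.928 and 0.503. Hmgcs1 was at −0.20 with library numbers under 20 and 0.42 with numbers of 20 and over, and Idi1 at 0.72 and −0.39. Fdft1 had the smallest p of the 7, at −0.59 ± 0.25 (95% interval −1.11 to −0.07, unadjusted p = 0.0267 and adjusted p = 0.347 in edgeR), and it was −0.62 and −0.56 in the 2 sets of library numbers. Without the 6 oocytes high in cumulus expansion genes it was −0.27. Fdps had −1.004 ± 0.83 (95% interval −2.70 to 0.70), Cyp51 −0.87 ± 0.69 (−2.28 to 0.54), Sqle −0.30 ± 0.38 (−1.07 to 0.47) and Lss −0.15 ± 0.58 (−1.34 to 1.05). Without MII fresh oocyte 11 alone Fdps was at 0.13, Sqle at 0.072 and Cyp51 at 0.0038, and without the 6 oocytes high in cumulus expansion genes they were at −0.32, 0.18 and −0.15. Mvk and Mvd were too low to be tested in this comparison. The filter of the fit of all 32 oocytes also counted GV oocytes, where Mvd was higher. In that fit Mvd was at −2.28 (unadjusted p = 0.0180 and adjusted p = 0.374 in edgeR). Mvk was at −2.66 in that fit (unadjusted p = 0.0636 and adjusted p = 0.533 in edgeR). MII fresh oocyte 11 had 10.7 CPM of Mvd, beside a group median of 0.458, and 18.6 CPM of Mvk, beside a median of 0. These values are thus a description and do not show a treatment difference. The interaction of stage with treatment was called for 0 of the 9 enzymes and 0 of 11470 genes, or 0%, in edgeR, with 0 enzymes and 467 genes (4.07%) at an unadjusted p under 0.05 and 8 genes by DESeq2. Of the main fits only this one tested Mvk, at −1.40 ± 2.57 (edgeR unadjusted p = 0.589). Mvk had 10 or more counts in only 1 oocyte of each group.

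The other genes of the pathway were read from lists of the remaining sterol enzymes, regulators, transport proteins and isoprenoid branches. The stage comparisons in fresh and in vitrified oocytes share no oocytes. Of 12 other sterol enzymes tested in fresh oocytes 5 rose and 2 fell, and of 11 in vitrified oocytes also 5 and 2. Over all genes 23.5% rose and 30.6% fell in fresh oocytes, and 25.1% and 34.2% in vitrified ones. Sc5d, which acts near the end of cholesterol synthesis, rose from 31.8 ± 7.96 CPM in GV fresh to 276 ± 71.7 in MII fresh oocytes (log2 fold change 3.09 ± 0.29, edgeR adjusted p = 3.28e-08), and by 2.87 ± 0.32 on the log2 scale in vitrified ones (1.33e-07). Msmo1, which acts after Cyp51, rose by 1.82 in fresh and 1.81 in vitrified oocytes, and Hsd17b7 by 0.86 and 1.42. In fresh oocytes Hsd17b7 was not called with library totals (0.48, edgeR adjusted p = 0.168), with the replicate block (0.66, 0.223) or with library numbers under 20 (0.70, 0.05002). Nsdhl, which acts with them on the same methyl groups, fell by 2.26 in fresh and 1.88 in vitrified oocytes. Sc5d was not whole in 23, Msmo1 in 14 and Hsd17b7 in 3 of the 24 MII oocytes.

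Of the 12 regulators tested 4 rose and 0 fell in fresh oocytes, and 5 rose and 1 fell in vitrified ones, beside 23.5% and 30.6% of all genes in fresh and 25.1% and 34.2% in vitrified oocytes. Insig1, which retains the SREBP complex in the endoplasmic reticulum, rose from 44.2 ± 10.8 to 240 ± 138 CPM in fresh oocytes (2.41 ± 0.40, edgeR adjusted p = 4.54e-05) and by 1.92 ± 0.30 in vitrified ones (1.19e-05). It was whole in every MII oocyte. Rnf145, a ubiquitin ligase, rose by 1.76 and 2.46, and Nr1h2, a receptor for oxysterols, by 1.56 and 1.504. Nr1h2 had a fraction in 13 of the 24 MII oocytes and Rnf145 in 0. Mbtps1, the protease that makes the first of the cuts releasing SREBP, rose from 11.97 ± 3.37 to 42.9 ± 21.1 CPM in fresh oocytes (log2 fold change 1.81 ± 0.42, edgeR adjusted p = 0.00130) and by 1.61 ± 0.54 in vitrified ones (0.0145), and it was not whole in 9 of the 24 MII oocytes. In vitrified oocytes Mbtps1 was not called with library totals (1.16, edgeR adjusted p = 0.1004) or with library numbers under 20 (0.81, 0.138). Srebf2, which encodes SREBP2, was low, at 3.06 ± 5.06 CPM in GV fresh and 10.4 ± 6.62 in MII fresh oocytes, and was called in vitrified oocytes (2.43 ± 0.76, edgeR adjusted p = 0.00888) but not in fresh ones (1.73 ± 0.92, 0.119), with an interaction of 0.72 ± 1.09 (edgeR adjusted p = 1.00). Srebf2 was not called in vitrified oocytes with the replicate block (2.85, edgeR adjusted p = 0.0900) or with library numbers of 20 and over (2.11, 0.0737). It was called in fresh ones without GV fresh oocyte 4 (4.19, edgeR adjusted p = 0.00187), with the replicate block (4.05, 0.00419), with limma-voom (3.25, 0.00755) and with library numbers under 20 (2.27, 0.0363). Scap, its escort, had 0.35 ± 0.46 and 0.16 ± 0.46, and Insig2 0.49 ± 0.77 and −0.15 ± 0.56, none of them called.

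Of the transport genes 3 of 15 tested rose and 3 fell in fresh oocytes, and 3 of 13 rose and 4 fell in vitrified ones, counts near or below the 23.5% and 30.6% of all genes in fresh and the 25.1% and 34.2% in vitrified oocytes. Scarb1, which takes up cholesterol from lipoproteins, rose by 2.59 ± 0.49 in fresh and 3.01 ± 0.57 in vitrified oocytes on the log2 scale, from 9.14 ± 5.19 to 55.8 ± 24.1 CPM in fresh ones (edgeR adjusted p = 1.58e-04 and 1.18e-04). Stard4, a cytosolic sterol carrier, fell by 2.75 ± 0.32 in fresh oocytes and fell by 2.16 ± 0.43 in vitrified ones (edgeR adjusted p = 5.87e-07 and 1.80e-04). Lrp1, a large endocytic receptor, rose by 2.09 and 1.59, and Soat1, which esterifies cholesterol, by 0.89 and 1.20. In vitrified oocytes Lrp1 was not called in 5 of the 16 fits that left out 1 oocyte, with a lowest value of 1.32 without GV vitrified oocyte 1, and Soat1 was not called without GV vitrified oocyte 4 (1.03). Lrp1 was also not called with library numbers of 20 and over in fresh oocytes (1.26, edgeR adjusted p = 0.0569), and in vitrified ones with library totals (1.10, 0.168), the replicate block (1.53, 0.0669) or library numbers under 20 (1.24, 0.112). Soat1 was not called with library totals in fresh (0.53, edgeR adjusted p = 0.0944) or vitrified oocytes (0.84, 0.0552), nor with library numbers of 20 and over in vitrified ones (1.17, 0.0848). Of the 24 MII oocytes Soat1 was not whole in 17, Scarb1 in 8, Lrp1 in 6 and Stard4 in 0.

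Of 15 isoprenoid branch genes tested 5 rose and 4 fell in each treatment, beside 54.1% of all genes called in fresh and 59.3% in vitrified oocytes. Coq2, of ubiquinone synthesis, rose by 2.03 ± 0.28 in fresh and 1.79 ± 0.38 in vitrified oocytes, and Pggt1b, a subunit of a protein prenyltransferase, by 2.86 ± 0.50 and 3.44 ± 0.36. Pdss2, which helps to build the ubiquinone tail, fell by 1.97 ± 0.34 and 1.54 ± 0.34, and Rce1, which trims prenylated proteins, by 1.98 ± 0.29 and 1.69 ± 0.34 (edgeR adjusted p from 5.26e-06 for Coq2 in fresh to 5.44e-04 for Pdss2 in vitrified oocytes, and 4.66e-08 for Pggt1b in vitrified oocytes).

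**Figure D5:**
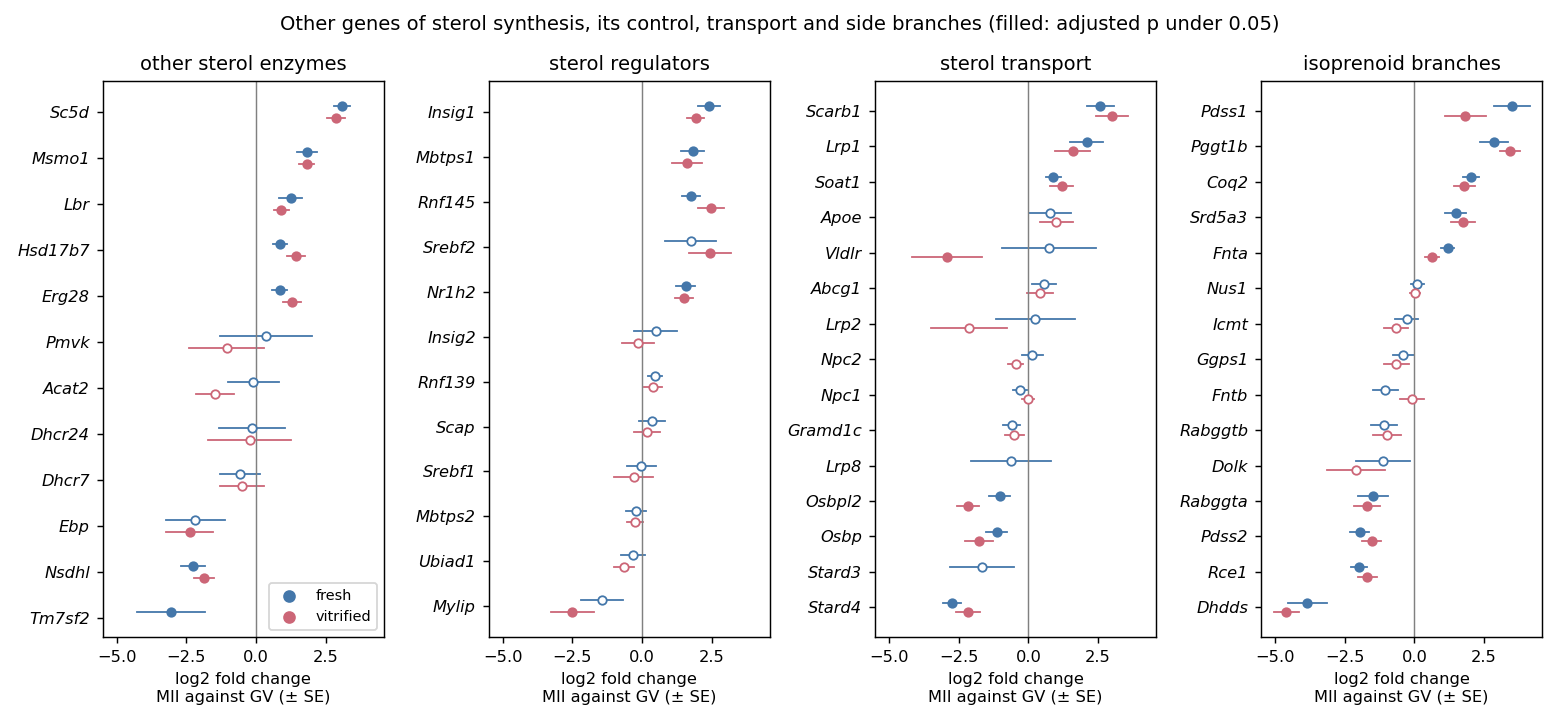
Log2 fold change of MII against GV oocytes (horizontal axes, bars ± SE) for the tested genes of the 4 pathway lists, fresh in blue and vitrified in red, filled where the edgeR adjusted p is under 0.05. Sc5d at 3.09 and 2.87 leads the other sterol enzymes, and among the regulators Insig1 lies at 2.41 and 1.92.

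Within groups, the genes that varied most like each abundant enzyme over the 32 oocytes were named by Pearson's r of log2 CPM after subtracting group means, among 5031 genes with a mean of at least 20 CPM. The points share library depth and, in 6 oocytes, cumulus transcripts, so r is a description. Idi1 varied most like Mob4 (r = 0.92), Osgepl1 (0.90) and Hnrnpk (0.90), with 0.94, 0.93 and 0.90 over the 26 oocytes left without those 6. Hmgcs1 varied most like Map3k5 (0.78, and 0.76 over 26), Lpgat1 (0.66) and Trim24 (0.64). Fdps varied most like Fth1 (0.92), Rpl6 (0.90) and Akr1cl (0.90), but over 26 oocytes these values were 0.55, 0.54 and 0.44. Fdft1 varied most like Ndufv1 (0.72), Ranbp1 (0.71) and Cct5 (0.71), with 0.44, 0.48 and 0.49 over 26. Between the enzymes themselves the highest r was 0.61, for Mvk with Fdps, and 0.08 without the 6 oocytes, whereas Hmgcs1 and Idi1 had 0.03. Without the 6 oocytes the highest r was 0.46, for Mvd with Cyp51, which had 0.59 over all oocytes.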

How the data were processed

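Single-oocyte libraries were read from 1 deposited table. Per the submitters' processing notes, the tools were HISAT2 and featureCounts and the mouse build was mm10, with no version or role stated. The deposited GV values were all whole and were taken as raw counts. The deposited MII values were partly fractional and were taken as estimated counts, made by the authors in a step that the labels do not name. Values were rounded to whole numbers. Of 13202 entries, 27 exact repeats were removed, leaving 13175 genes.

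Counts were scaled by the trimmed mean of M values (TMM), filtered with filterByExpr (at least 10 counts, 15 in total) and tested with the two-sided quasi-likelihood F test of edgeR 4.0.16 in R 4.3.3, with Benjamini-Hochberg adjustment at 0.05 over all genes. Only the groups compared entered each fit, and the interaction used all 4. CPM use TMM sizes over the 32 oocytes. Levels per kilobase use the principal GENCODE M21 transcript. DESeq2 1.42.0 and limma-voom (limma 3.58.1) were alternatives, with other scalings, filters, rounding, library number sets and left-out oocytes. The fits were tested on simulated data.

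The enzymes and gene lists were chosen with earlier results of these data known. The genes named are the 9 enzymes, the up to 4 genes of each pathway list with the smallest p between stages in fresh oocytes, and Srebf2, Scap, Insig1 and Insig2. Some genes of the lists are not reported here, and the rule and counts were applied to the genes left. The 3 genes most like each enzyme of at least 20 CPM were also named. No 2 libraries of a group agreed within sampling noise (chi-square per degree of freedom of 19.4 or more).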

Additional observations from a re-analysis of the deposited data

Results flagged for a closer look

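In groups of 4 oocytes, an oocyte was singled out where its gap to the nearest other, divided by the range of the group, passed Dixon's critical value of 0.829. This was met in 3 of 18 combinations of enzyme and GV group. Chance alone gives about 1 in 20 only for normally distributed values. CPM were used here without a log scale and some lie near 0, so the chance rate for them is not known. Idi1 was at 42.3 CPM in GV fresh oocyte 3, beside 3.12 to 6.55 CPM in the other 3. Mvk was at 3.11 CPM in GV fresh oocyte 1, beside 0.0920 to 0.317 CPM. Cyp51 was at 5.06 CPM in GV vitrified oocyte 2, beside 1.25 to 1.84 CPM. The cause of these values was not tested.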

How the results depend on the processing

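Between stages, Hmgcs1 and Idi1 were called higher and Fdft1 lower in both treatments under every alternative run. The number of enzymes called lower in fresh oocytes, 2, was 4 with limma-voom, 1 with the stricter filter on CPM, 4 without oocytes high in cumulus expansion genes, and 1 to 3 when 1 oocyte was left out. In vitrified oocytes, also 2, it was 4 with DESeq2, 5 with limma-voom, 5 with library totals, 1 with the stricter filter, 4 with library numbers under 20, 1 with numbers of 20 and over, and 1 to 3 when 1 oocyte was left out. It was 1 without GV fresh oocyte 4 and, in vitrified oocytes, without GV oocyte 2, 3 or 4 or MII oocyte 1, 6 or 11. Mvd was then not tested in vitrified oocytes.

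Over all genes, MII vitrified against fresh oocytes gave 0 calls, but 36 with DESeq2, 1 with library totals, 1 with the stricter filter, 1 in the fit of all 32 oocytes, and 0 to 1 when 1 oocyte was left out. The interaction gave 0 calls, but 8 with DESeq2, 3 with RLE factors, 3 with upper-quartile factors, 2 with the stricter filter, and 0 to 4 when 1 oocyte was left out.

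Changes of sign were limited to log2 fold changes that were not called. In the MII treatment comparison, Hmgcs1 was −0.10 with library totals, −0.014 with the stricter filter and −0.20 with library numbers under 20, and Idi1 −0.39 with numbers of 20 and over. Fdps was 0.29 with DESeq2. Without the oocyte high in the summed cumulus and granulosa markers (MII fresh oocyte 11) Fdps was 0.13, Sqle 0.072 and Cyp51 0.0038, and without those high in cumulus expansion genes Sqle was 0.18. In fresh oocytes between stages, Fdps was 0.11 with library numbers of 20 and over. Sqle was −0.29 with limma-voom, −0.33 with library totals, −0.057 with the stricter filter, −0.23 with library numbers under 20, −0.29 without MII fresh oocyte 11 and −0.41 without oocytes high in cumulus expansion genes. Cyp51 was −0.13 with limma-voom, −0.14 with library numbers under 20 and −0.048 without those oocytes. Scap was −0.064 with library totals and −0.28 with numbers of 20 and over. In vitrified oocytes, Cyp51 was −0.11 with limma-voom and −0.70 with library numbers under 20, Scap −0.30 with library totals and −0.22 with library numbers under 20, and Insig2 0.067 with upper-quartile factors and 0.29 with numbers of 20 and over. In the interaction, Hmgcs1 was 0.18 with numbers of 20 and over, Mvk 4.58 with DESeq2 and 2.05 with limma-voom, Cyp51 0.0028 with limma-voom, 0.63 without MII fresh oocyte 11 and 0.49 without oocytes high in cumulus expansion genes, where Fdft1 was 0.089.

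With 1 oocyte left out, these ranges crossed 0. In the treatment comparison of GV oocytes Idi1 ran from −1.002 to 0.77. In that of MII oocytes Hmgcs1 ran from −0.024 to 0.14, Fdps from −2.27 to 0.13, Sqle from −0.44 to 0.072, Lss from −0.49 to 0.021 and Cyp51 from −1.12 to 0.0038. Between stages Sqle ran from −0.29 to 0.29 in fresh oocytes, and in vitrified ones Scap from −0.055 to 0.55 and Insig2 from −0.30 to 0.22. In the interaction Mvk ran from −3.58 to 0.51, Idi1 from −0.44 to 1.39 and Cyp51 from −0.44 to 0.63.

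The labels give replicate numbers shared by the groups, and these were not taken as pairs in the main fits. Deviations of oocytes with the same replicate number correlated from −0.55 to 0.37 in GV and from −0.47 to 0.44 in MII oocytes. The correlation was over 0.1 in 2 of 4 pairs of GV and 6 of 12 pairs of MII oocytes. In GV 1 oocyte and in MII 0 oocytes correlated best with their own number. Library numbers are also partly shared by fresh and vitrified oocytes, in other combinations, and pairing by them was not tested. With the replicate block, 4 enzymes were called lower between stages in fresh oocytes, and Mvd in vitrified oocytes was −5.63 (edgeR adjusted p = 0.0613). Sqle was −0.38 and Cyp51 −0.45 between stages in fresh oocytes, Cyp51 −0.28 and Scap −0.11 in vitrified ones, Mvk 2.72 in the interaction and Idi1 0.091 in the GV treatment comparison. With 4 GV oocytes a group, the depth of Mvk, Mvd and Cyp51 limits what can be detected.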
